A study of Caenorhabditis elegans with 2 samples.

Results

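The 6 Hox genes of Caenorhabditis elegans that are listed here are ceh-13, lin-39, mab-5, egl-5, nob-1 and php-3, chosen by name out of 19973 protein-coding genes. Peaks of the transcription factor PAX-3 were scored at each of them by chromatin immunoprecipitation and sequencing (ChIP-seq). The study has 2 biological replicates in 1 group, with nothing to contrast them with. Both were whole L1 larvae of mixed sex, 6 h old and starved after bleaching, of strain OP190 (unc-119(ed3) III; wgIs190), which stably expresses PAX-3 with GFP and FLAG at its C terminus. The precipitation used an antibody against GFP. All larvae carry the unc-119 mutation and the transgene, and no strain without the tag is compared here. Whole larvae were used, so binding in few cells and weaker binding in many cells cannot be told apart.

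Hox genes encode homeodomain transcription factors that give cells their identity according to position along the body axis. In C. elegans they act in embryonic patterning, in migrating neuroblasts and in the ventral epidermal P cells, where lin-39 and mab-5 decide which descendants join the vulva or fuse with the epidermis. PAX-3 is a paired box factor known from the ventral epidermis, so its sites near these genes bear on whether the factor lies on Hox loci in starved L1 larvae. All 6 genes lie on chromosome III (build ce11). From left to right lin-39 and ceh-13 were 19.0 kb apart, mab-5 and egl-5 followed with 30.9 kb between them, and php-3 and nob-1 stood 4.26 Mb further on, 236 bp apart.

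No Hox gene had a PAX-3 peak at its promoter or in its body on the authors' list thresholded by irreproducible discovery rate (IDR). The IDR list held 2139 peaks, and its only summit within 10 kb of a Hox gene was beyond the end of lin-39, at the start of cux-7. The 3 relaxed lists (pooled data and each replicate, 30000 peaks each, which by their name include background) held low summits near all 6 genes. Among these, a low summit just before the start of mab-5 was in both replicate lists and in the pooled list, which combines them. Of all protein-coding genes, 21.9% had a promoter summit in each of these 3 lists. A group of 5 pooled summits lay in 1 intron of nob-1, and 6.10% of genes of similar length had as many or more in the body. The nob-1 body held 5 summits in replicate 1 but 3 in replicate 2.

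Some of these sites are printed here because the results turn on them: part of the IDR peak beyond lin-39, the pooled promoter summits of mab-5 and php-3, and the strongest pooled summits at nob-1 and ceh-13. Each is the plus strand of chromosome III from the RefSeq copy of the assembly, within 100 bp of the summit or, for the lin-39 entry, within the peak. The lin-39, mab-5 and php-3 entries are cut back on 1 side at the edge of an annotated exon, and the ceh-13 and nob-1 entries are whole windows of 200 bp. In the lin-39 entry the cut leaves out the summit itself, which lies in the first bases of cux-7. Capitals mark a match to 1 of the 4 motifs named further on. The lin-39 entry is chrIII:7520846-7520980, ceh-13 is chrIII:7553233-7553432, mab-5 is chrIII:7783455-7783600, php-3 is chrIII:12077618-12077792 and nob-1 is chrIII:12082521-12082720.
beyond lin-39, intergenic part of the IDR peak: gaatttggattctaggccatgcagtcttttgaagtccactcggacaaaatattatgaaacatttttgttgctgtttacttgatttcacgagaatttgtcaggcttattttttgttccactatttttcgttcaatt
ceh-13, upstream summit: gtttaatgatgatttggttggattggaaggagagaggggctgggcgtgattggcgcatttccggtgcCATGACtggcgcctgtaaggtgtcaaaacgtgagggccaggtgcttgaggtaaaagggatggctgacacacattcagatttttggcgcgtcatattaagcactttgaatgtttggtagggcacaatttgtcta
mab-5, promoter summit: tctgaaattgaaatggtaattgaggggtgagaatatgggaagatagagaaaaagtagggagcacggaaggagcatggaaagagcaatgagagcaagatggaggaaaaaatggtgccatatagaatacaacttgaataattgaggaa
php-3, promoter summit: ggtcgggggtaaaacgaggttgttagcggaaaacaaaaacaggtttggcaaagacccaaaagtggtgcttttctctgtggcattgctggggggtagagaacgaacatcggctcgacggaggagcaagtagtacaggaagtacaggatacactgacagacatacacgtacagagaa
nob-1, intron summit: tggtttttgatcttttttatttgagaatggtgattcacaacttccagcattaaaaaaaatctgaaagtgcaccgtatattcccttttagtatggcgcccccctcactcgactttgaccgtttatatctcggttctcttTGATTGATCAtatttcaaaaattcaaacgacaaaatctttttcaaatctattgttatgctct

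The promoter window of a gene covered the 1000 bp before its annotated start and the 200 bp after it, and each peak was placed by its summit. On the IDR list 0 of 6 Hox genes had a summit in that window, which allows a share of up to 50%, beside 6.99% of all protein-coding genes. In the gene body the count was also 0 of 6, beside 2.66% of all genes. Shares this small come to under 1 gene in 6, so neither count of 0 sets the Hox genes apart. With 10 kb added to each side of the gene, called its neighbourhood here, 1 of 6 Hox genes had an IDR summit, beside 34.4% of all genes. With 6 genes these shares are not precise, and no test was made. In the pooled list 2 of 6 Hox genes (mab-5 and php-3) had a promoter summit, beside 36.7% of all genes. Replicate 1 gave 3 of 6 (mab-5, egl-5 and nob-1), beside 36.7%, and replicate 2 gave 2 of 6 (mab-5 and php-3), beside 37.5%. Only mab-5 had a promoter summit in the pooled list and in both replicate lists, a state that 21.9% of all protein-coding genes shared. Pooled summits lay in the bodies of 2 of 6 Hox genes (lin-39 and nob-1), beside 49.3% of all genes. All 6 had a pooled summit in the neighbourhood, as did 99% of all genes, so that presence in a neighbourhood separates nothing.

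**Figure D1:**
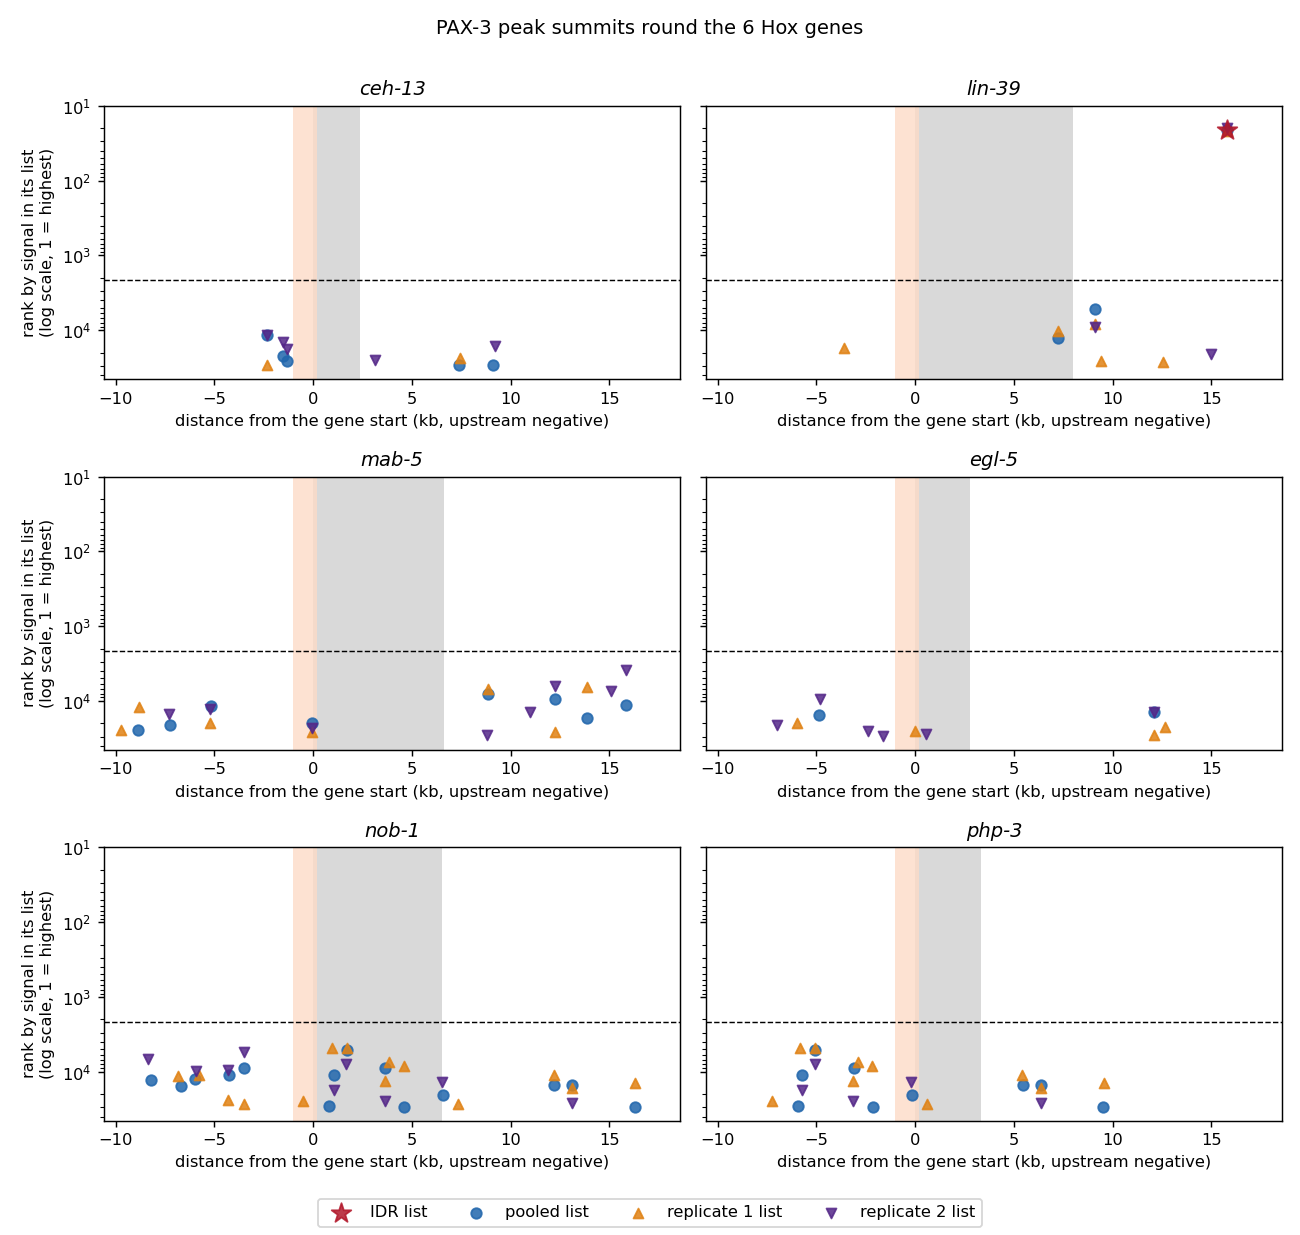
Summits within 10 kb of each Hox gene by distance from the gene start (x axis, kb, upstream negative) and by rank of signal within their own list (y axis, log scale, 1 is highest). Grey marks the gene body, pink the promoter window and the dashed line rank 2139, the length of the IDR list. The IDR star beyond lin-39 at rank 21 stands far above every other summit, whose pooled ranks run from 5174 to 29741.

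The most anterior gene of the set, ceh-13, is the orthologue of labial and acts in the embryo. No list had a summit in its promoter window or its body (WBGene00000437, III 7555660 to 7558041, plus strand). Just beyond the window, pooled summits lay 1298 bp upstream (signal 43.2) and 1533 bp upstream (46.1), and both were matched within 100 bp in replicate 2 only. The strongest pooled summit of its neighbourhood lay 2327 bp upstream, with a signal of 58.4 and rank 11719. Its signal was 22.7 in replicate 1 (rank 29737 of 30000) and 31.8 in replicate 2 (rank 11680). The site was therefore in both lists but next to the bottom of the first. The remaining 2 pooled summits, 7384 and 9126 bp downstream of the start, lay in coding exons of lgc-12 and ttr-8.

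The gene for mid-body identity, lin-39, controls the fate of the vulval precursor cells. It had no promoter summit in any list (WBGene00003024, III 7528641 to 7536632, minus strand). The IDR summit of its neighbourhood had a pooled signal of 1047 and was 21st of 2139, with 534 in replicate 1 (rank 22) and 503 in replicate 2 (rank 20). All lists put it within 1 bp of the same base, so this peak is firm in both replicates. Its place, however, was 15796 bp from the lin-39 start and 7805 bp past the lin-39 end. It lay 9 bp inside cux-7, in the 5′ untranslated part, 173 bp upstream of the start of C07H6.2, which RefSeq names an E3 ubiquitin ligase gene, and 627 bp upstream of that of lig-4, which encodes DNA ligase IV. The summit was thus in the promoter windows of these 3 genes and in none of a Hox gene, and the intergenic bases printed for it stand between cux-7 and C07H6.2.

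Nearer to lin-39, a pooled summit lay 1125 bp past the gene's end, with a signal of 77.0 (rank 5243) in the pooled list. It was matched within 4 bp in each replicate, at 37.3 in replicate 1 (rank 8287) and 34.5 in replicate 2 (rank 9118). In the last part of the gene, 7255 bp from its start, an intron summit had a pooled signal of 57.0 (rank 12612) and was matched in replicate 1 only. These 3 were all the pooled summits in 28.0 kb, and 7.27% of protein-coding genes had fewer in their neighbourhoods (the median was 7). Replicate 2 also held 3 summits there (6.29% of genes had fewer), but replicate 1 held 6 (37.5%), so the low number was not seen in replicate 1.

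In the posterior body mab-5 steers the migration of neuroblasts and the fates of P cells. At this gene (WBGene00003102, III 7776835 to 7783454, minus strand) the pooled promoter summit lay 47 bp upstream of the start. Its signal was 48.3 in the pooled list (rank 19629), 24.1 in replicate 1 (rank 26445, 43 bp upstream) and 24.7 in replicate 2 (rank 23210, 55 bp upstream). The position was thus the same to within 12 bp while the signal was low in all 3 lists. Of the genes with a pooled promoter summit 25.9% had a weaker one. The share was 8.94% in replicate 1 and 16.2% in replicate 2, whose lowest signals were 22.6 and 22.0. The −log10 q-value of the summit was 0.135 in the pooled list, 0.120 in replicate 1 and 0.133 in replicate 2. The window printed for it holds none of the motifs searched. No summit of any list lay in the mab-5 body. Of the 8 pooled summits in its neighbourhood, from 43.8 to 65.9 in signal, 4 were matched in both replicates. Those at 15836 and 13856 bp downstream of the start lay in exons of ZK686.3 and snu-23. The strongest of the 8 lay 8879 bp downstream of the start and 2260 bp past the gene's end. It ranked higher in replicate 1 (39.7, rank 6870) than in replicate 2 (22.4, rank 28743).

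The gene egl-5, of the Abdominal-B class, patterns the tail. Its neighbourhood of 22.8 kb (WBGene00001174, III 7814374 to 7817141, plus strand) held 2 pooled summits, and 3.11% of protein-coding genes had fewer. The count was 4 in replicate 1 (14.3% of genes had fewer) and 6 in replicate 2 (35.97%), so the low pooled number did not recur in the replicate lists. At the start itself replicate 1 had a summit 18 bp upstream (24.4, rank 25549), and neither replicate 2 nor the pooled list had a promoter summit. The body held a replicate 2 summit 569 bp downstream (22.8, rank 27858) and no other. Of its pooled summits, that at 4879 bp upstream (53.0) was matched in replicate 2 only. The other, at 12104 bp downstream (54.9), was matched in both but lay in a coding exon of egl-45, a neighbouring gene.

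The genes nob-1 and php-3 are closely related posterior Hox genes of the Abdominal-B class that act together in posterior embryonic patterning. Because they stand 236 bp apart, their neighbourhoods overlap and share 9 pooled summits, which are therefore not independent between them. The span of both with flanks, 30.1 kb, held 14 pooled summits, or 4.65 per 10 kb, beside 3.02 per 10 kb on chromosome III. The same span held 14 summits in replicate 1 (4.65 per 10 kb) and 9 in replicate 2 (2.99 per 10 kb), beside 3.04 and 3.00 per 10 kb on chromosome III in these lists, so the higher density was not seen in replicate 2.

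In nob-1 (WBGene00003779, III 12077793 to 12084316, minus strand) all 5 pooled summits of the body lay in the same intron of 4330 bp. The strongest, 1695 bp from the start, had a pooled signal of 77.4 (rank 5174), with 45.1 in replicate 1 (rank 4762) and 36.2 in replicate 2 (rank 7843). Those at 3645 bp (64.0) and 1043 bp (59.6) were also matched in both replicates. That at 4620 bp (40.2) was matched in replicate 1 only, and that at 809 bp (41.1) in neither. The pooled peaks at 1043 and 809 bp overlapped, so the 5 summits need not be separate sites. Of 1427 other protein-coding genes within 20% of the length of nob-1, 6.10% had 5 or more pooled summits in the body, and their median was 2. The nob-1 body held 5 summits in replicate 1 (97.0% of all protein-coding genes had fewer) and 3 in replicate 2 (90.9%). The summit at 4620 bp was the weakest of all 32 pooled Hox summits, and the start of a shorter annotated transcript lies 261 bp past it. With a window at every annotated transcript start, an alternative chosen after seeing the data, nob-1 joined mab-5 and php-3 among genes with a pooled promoter summit. Upstream of nob-1, the pooled summits at 3483 bp (63.9) and 4279 bp (59.3) were matched in both replicates, each ranked higher in replicate 2 (40.9, rank 5389, and 34.1, rank 9515) than in replicate 1 (23.8, rank 26983, and 25.2, rank 23984). The promoter window of nob-1 held a replicate 1 summit 502 bp upstream (24.8, rank 24671) and none in the other lists.

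At php-3 (WBGene00004024, III 12074218 to 12077556, minus strand) the pooled promoter summit lay 162 bp upstream of the start, in the short stretch between the 2 genes. It had a pooled signal of 47.5 (rank 20397) and 30.1 in replicate 2 (rank 13696), 51 bp away. Replicate 1 had no summit within 100 bp, so this summit rested on replicate 2. Replicate 1 alone had a summit in the php-3 body, 598 bp from the start (23.7, rank 27281).

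**Figure D2:**
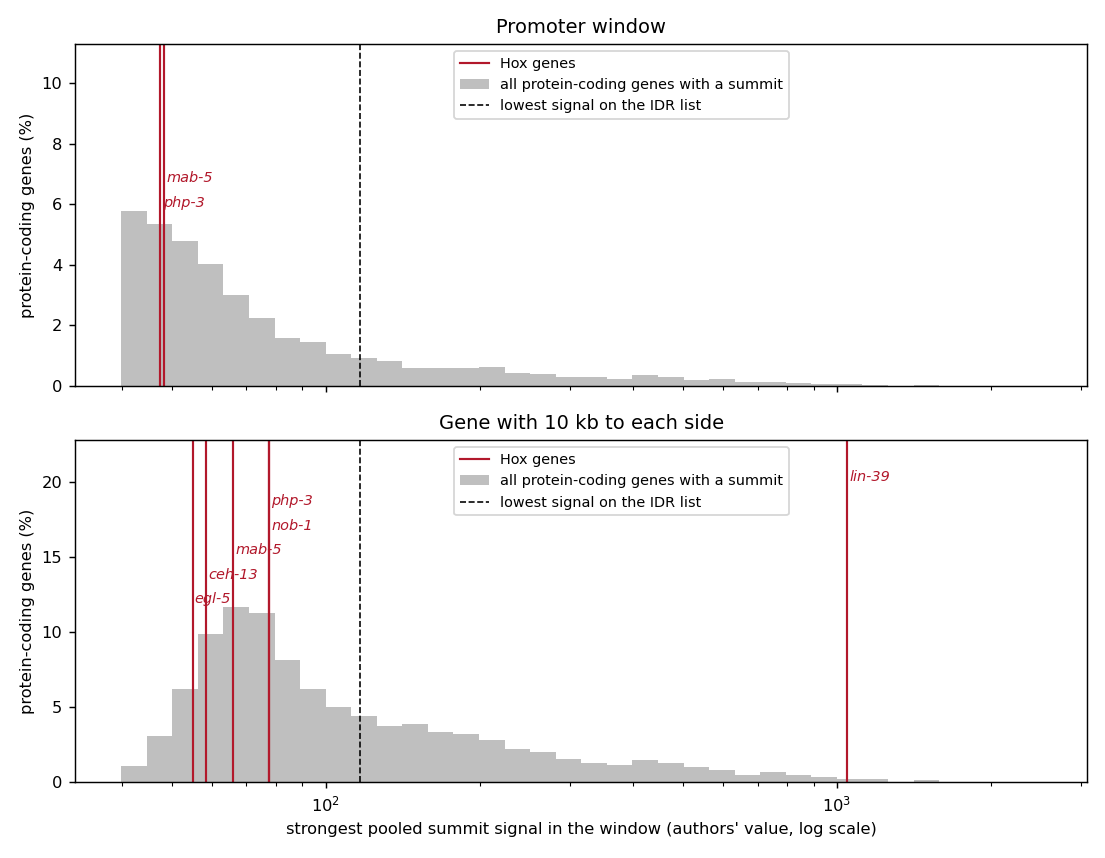
Strongest pooled signal in the promoter window (top) and in the neighbourhood (bottom) of the Hox genes (red lines) and of all protein-coding genes with a summit there (grey bars, percent of all protein-coding genes; log x axis). Only the lin-39 line, at 1047, lies right of the lowest IDR signal, 117; mab-5 and php-3 stand at 48.3 and 47.5 in the promoter panel.

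The strongest neighbourhood summits other than that beyond lin-39 were ordered nob-1 and php-3 (77.4, the same summit), mab-5 (65.9), ceh-13 (58.4) and egl-5 (54.9). The median over all protein-coding genes was 86.7, with quartiles of 66.0 and 157. Thus 5 of 6 Hox genes lay below the median for all genes, and the spread of these values between replicates was not estimated, since each list has its own scale. The distance from a Hox gene start to the nearest IDR summit was 14.8 kb for ceh-13, 15.8 kb for lin-39 and 16.9 kb for egl-5, beside a median of 20.2 kb over all protein-coding genes. It was 47.8 kb for mab-5, 131 kb for php-3 and 135 kb for nob-1. A nearer IDR summit was found for 95.8% of all genes than for php-3, and for 96.1% than for nob-1.

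In all, the neighbourhoods covered 129 kb and held 32 pooled summits, or 2.48 per 10 kb, beside 3.02 on chromosome III. Of the 32, 18 were intergenic, 8 intronic, 4 in coding exons and 2 in untranslated parts of exons. The 31 summits below the IDR list had signals from 40.2 to 77.4, with a median of 53.3. Their −log10 q-values ran from 0.111 to 0.412, beside a lowest value of 1.18 on the IDR list. In the neighbourhoods 14 of 32 (43.8%) were matched within 100 bp in both replicates, 7 in replicate 1 only, 8 in replicate 2 only and 3 in neither. Of all 30000 pooled summits 32.7% were matched in both. Without the IDR summit the count was 13 of 31 (41.9%), beside 22.1% of all pooled summits of the same signal range.

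Signal moved with this share: of the 15 relaxed Hox summits at or above the pooled median of 53.6, 11 (73.3%) were matched in both, beside 44.1% of the other summits in that range. Under the median it was 2 of 16 (12.5%), beside 7.48%. On chromosome III outside the Hox neighbourhoods 22.0% of summits of the same signals were matched in both. The higher share at Hox genes was not tested, since neighbouring summits are not replicates, and the median signals within these ranges were not matched.

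**Figure D3:**
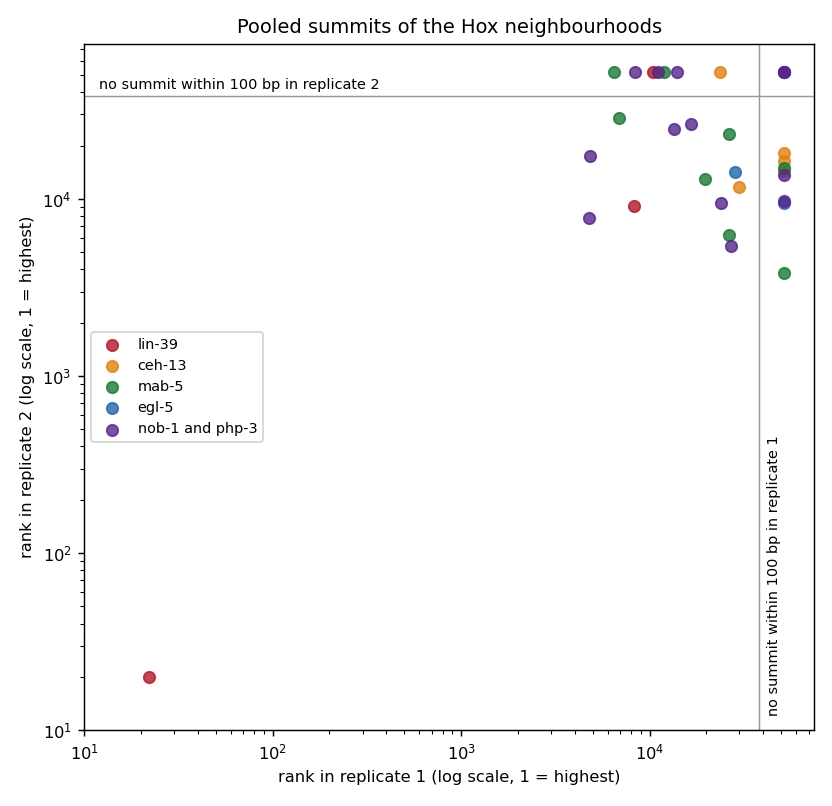
Rank of each of the 32 pooled Hox summits in replicate 1 (x axis) and replicate 2 (y axis), both on log scales with 1 highest, for summits matched within 100 bp. Points beyond the grey lines have no match in that replicate. The summit beyond lin-39 (ranks 22 and 20) stands alone. The best rank of the others is 4762 in replicate 1 (nob-1 intron) and 3831 in replicate 2. The latter summit is in the mab-5 neighbourhood but inside ZK686.3, with no match in replicate 1.

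The windows of 200 bp centred on the 32 pooled summits were searched on both strands for GTCACG and GTCATG (cores bound by paired domains), TAATTA (homeodomain; the same on both strands) and TGATNNAT (Hox with a Pbx partner). GTCACG was in 1 of 32 windows (3.13%), that of the lin-39 intron, beside 8.56% of IDR and 4.67% of pooled windows. GTCATG was in 4 (12.5%), beside 7.01% and 6.03%. Among these 4 were the ceh-13 upstream window and the nob-1 intron window 3645 bp from the start. TAATTA was in 5 (15.6%), beside 7.90% and 7.40%, all of them at egl-5 or nob-1. TGATNNAT was in 5 (15.6%), beside 10.3% and 14.7%, and the printed nob-1 intron window holds 2 overlapping matches, 1 on each strand. The window of the IDR summit beyond lin-39 held none of the 4 motifs. Median GC content was 38.5% in the Hox windows, beside 41% in IDR and 39% in pooled windows. A match is a run of letters and does not show that a protein bound there.

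Genes that work with Hox genes were counted the same way. Of 17 regulators of Hox expression, 6 (35.3%) had an IDR promoter summit, beside 6.99% of all genes. Each was matched in both replicates. This adds little, because the IDR peaks were the 2139 pooled peaks of highest signal. Even below that list, the share matched in both was greater at higher signal. The list of regulators was chosen with earlier results of these data known, and a peak at lin-35 was among those. Polycomb-type and related repressors made up 4 of the 6: sor-1 (319), sop-2 (202), sor-3 (164) and mes-2 (141), of which mes-2 encodes the histone H3 lysine methyltransferase of the E(z) type. The others were lin-35, the retinoblastoma homologue (891), whose summit also lay in the window of vps-51, and lin-59 (322), a trithorax-type gene related to Ash1. The genes mes-3 and mes-6, whose products act in 1 complex with that of mes-2, had no promoter summit in the pooled list, nor had pal-1 and vab-7, homeobox genes, or bar-1 and pop-1 of the Wnt pathway. The remaining 5 with a pooled summit were lin-49 (69.1), egl-27 (66.4), ash-2 (52.0), lin-1 (47.9) and lin-31 (41.3), all below the IDR list.

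The other 3 lists had no gene with an IDR promoter summit, beside 6.99% of all genes, which comes to under 1 gene in each of these lists, so the count of 0 sets them apart in nothing. Their pooled counts stand beside 36.7% of all genes. Of 5 Hox cofactors (the IDR count of 0 allows up to 60%), only psa-3, a Meis-type gene, had a pooled summit. That summit (69.4) lay 20 bp upstream of the psa-3 start and was matched in both replicates. The Pbx-type genes ceh-20, ceh-40 and ceh-60 and the Meis-type gene unc-62 had none. Of 8 genes downstream of Hox proteins (IDR limit 37.5%), egl-1 and elt-6 had a pooled summit. That of egl-1, a cell death activator, was at 68.1 and matched in replicate 2 only. That of elt-6, a GATA factor gene, was at 61.2 and matched in replicate 1 only. The other 6, among them egl-18, egl-17 and hlh-8, had none. Of 13 P cell and vulval precursor genes (IDR limit 23.1%), vab-3, the Pax6 gene, had 61.3 and pax-3 itself 40.1 (rank 29928 of 30000). Both were matched in replicate 2 only, and let-23, lin-12 and lin-11 were among the 11 with none.

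**Figure D4:**
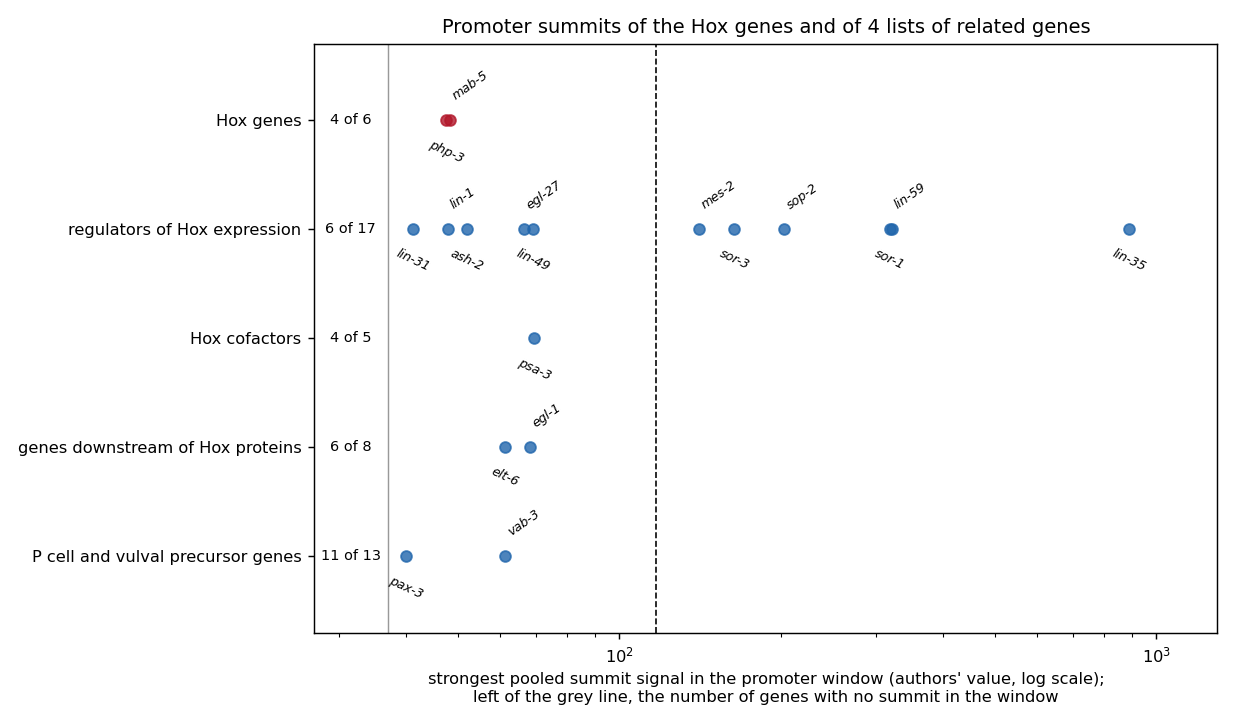
Strongest pooled signal in the promoter window (log x axis) of the Hox genes (red) and of 4 lists of related genes (blue), 1 point per gene; at the left, the number of genes with no summit. Right of the dashed line (117, the lowest IDR signal) lie 6 of 17 regulators of Hox expression and no gene of the other rows.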

How the data were processed

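Anti-GFP ChIP-seq of PAX-3 was done on 2 biological replicates, per the labels. The deposited files were narrowPeak lists, with ce11 coordinates per the labels and the authors' notes: an IDR-thresholded list, a pooled list and 1 list per replicate. The signal is the authors' deposited value per peak, of unstated scale, and served only for ranks and descriptions inside 1 list. The −log10 q-value per peak is also the authors' deposited value. For the aligner, the peak caller and the IDR threshold, the setting is not given in the sources used here. All 2139 IDR peaks were also the pooled peaks of highest signal in position and signal. The replicate lists shared 0 rows of position and signal. Sequencing depth is unknown, so no counting interval is given.

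The gene models were those of Ensembl release 115 (WBcel235, the ce11 assembly). The tools were pandas 2.3.3 and numpy 2.4.6 under Python 3.11.15, with matplotlib 3.10.9 for the figures. Summits within 100 bp were called matched. Assignment and matching were tested on simulated data. The members, gene lists and motifs were chosen with earlier results of these data known, and no test was made. Named genes are the 6 Hox genes, the genes at every IDR summit of a neighbourhood, list genes with an IDR promoter summit and up to 4 per list by pooled signal; genes named beyond these, and the share of matched summits by signal, were chosen after their values were seen. A count of 0 allows a share of up to 3 counts of the total, an approximation that is rough for lists of few genes.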

Additional observations from a re-analysis of the deposited data

How the results depend on the processing

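The count of Hox genes with an IDR promoter summit was 0 in each alternative run. These were windows of 500 or 2000 bp upstream, the 1069 IDR peaks of highest signal, and peak overlap in place of the summit. Every annotated transcript start (chosen after seeing the data) was also tried. For each replicate alone, the top peaks of its own list took the place of the IDR list (0 to 0). The count with a pooled promoter summit was 2 or 3 in the alternatives run (2 to 3 with each replicate alone), except that it was 0 among the 10000 pooled peaks of highest signal. The neighbourhood results depended on the flank: flanks of 5 kb gave 0 Hox genes and 0 IDR summits, and flanks of 20 kb gave 3 genes and 7 summits, in place of 1 gene and 1 summit. The pooled summits matched in both replicates were 26 of 66 with flanks of 20 kb and 7 of 7 among the 10000 highest, in place of 14 of 32. Both counts change with the number of summits considered. The 7 include the IDR summit beyond lin-39. Below the IDR list, 6 of 6 Hox summits among the 10000 highest were matched in both, beside 64.1% of 7855 other summits. The other alternatives stayed within 1.5 times the reported count. No paired analysis was possible because there is 1 group. Relaxed lists include background by their name. The 31 Hox summits below the IDR list had −log10 q-values of at most 0.412, beside at least 1.18 on the IDR list. Low signals cannot be told from background without read depth.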

Other observations

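The 289 kb from lin-39 to egl-5 held 6 IDR summits, or 0.208 per 10 kb, beside 0.263 on chromosome III, and each lay at a gene that is not a Hox gene. The strongest (277) was in the promoter window of lin-13, a zinc finger gene of the retinoblastoma pathway. Another (194) was in the shared window of lpd-7 and the ribosomal protein gene rpl-9, and 2 (172 and 144) lay in introns of ncl-1, which limits nucleolar size. The remaining 2, at R13A5.7 (173) and mfsd-6 (134), were 14.8 and 24.0 kb from the ceh-13 start. Past egl-5, 4 IDR summits stood together between 16884 and 21482 bp downstream of its start, with signals of 147, 217, 209 and 175, the first inside kcmf-1 and none in a promoter window. These were the egl-5 summits that flanks of 20 kb added.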
